A study of Homo sapiens with 6 samples.

Results

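The genes described here are 10 members of the BCL2 family, the proteins that decide whether the outer membrane of the mitochondrion is breached in apoptosis: BCL2, BCL2L1, BCL2L2, MCL1, BAX, BAK1, BOK, BCL2L11, BID and BAD. They were chosen by symbol from the 62696 genes listed in each table of counts, matched to their Ensembl identifiers, and all 10 were among the 18569 genes with enough counts to test. The RNA was from the established human cell line 12Z, epithelial cells of an endometriosis lesion, at passage 40. Cells were harvested 72 h after small interfering RNA (siRNA) was introduced with a lipid reagent. In 3 libraries (replicates A, B and C) the cells had received the siRNA LINC01638_2 against the long non-coding RNA LINC01638, and in 3 others (A, B and C) a control siRNA. All 6 libraries thus shared the line, the passage, the transfection reagent and the time, and they lack a second LINC01638 siRNA, a rescue and untransfected cells, so that what the siRNA did and what the loss of LINC01638 did cannot be told apart. The labels do not say that replicates were separate cultures, and the spread between libraries behind each p-value may be technical.

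Proteins of the BCL2 family share short BCL2 homology (BH) domains and act through binding one another. Anti-apoptotic members (BCL2, BCL-XL from BCL2L1, BCL-W from BCL2L2, and MCL1) hold pro-apoptotic members in a groove on their surface. The effectors BAX and BAK, and the more distant BOK, can form pores in the outer mitochondrial membrane and let cytochrome c out. BH3-only proteins such as BIM (from BCL2L11), BID and BAD carry the stress signal, either by occupying the anti-apoptotic members or by engaging the effectors directly. Much of this control lies in protein binding, cleavage, phosphorylation and turnover, which RNA counts do not measure.

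RefSeq promoter windows (GRCh38.p14, 250 bases before to 50 after an annotated start) were found for 8 of the 10 genes, and BCL2L2 and MCL1 had none in the table used. The stretches of the 3 effector genes are shown because BAK1 and BOK fell and BAX did not pass the test. Each ends before the first base of its window that GENCODE 29 places in an exon of a coding gene. Capitals mark an E-box (CACGTG), a GC box (GGGCGG or CCGCCC) or a CCAAT box (CCAAT or ATTGG), searched on both strands. The stretches are chr19:48954625-48954814 on the plus strand for BAX, chr6:33580294-33580526 on the minus strand for BAK1 and chr2:241558495-241558720 on the plus strand for BOK. A stretch of 30 bases of BCL2L11, chr2:111120680-111120709 on the plus strand, is shown for its match to the FOXO motif (GTAAACA or TGTTTAC, in capitals), since FOXO3 is a known activator of that gene. The BOK and BCL2L11 stretches lie within the GENCODE 29 spans of these genes, which begin upstream at 241551424 and 111119378.
BAX: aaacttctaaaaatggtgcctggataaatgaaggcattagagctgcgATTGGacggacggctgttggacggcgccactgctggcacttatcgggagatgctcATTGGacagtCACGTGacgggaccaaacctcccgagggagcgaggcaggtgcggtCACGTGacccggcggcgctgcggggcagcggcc
BAK1: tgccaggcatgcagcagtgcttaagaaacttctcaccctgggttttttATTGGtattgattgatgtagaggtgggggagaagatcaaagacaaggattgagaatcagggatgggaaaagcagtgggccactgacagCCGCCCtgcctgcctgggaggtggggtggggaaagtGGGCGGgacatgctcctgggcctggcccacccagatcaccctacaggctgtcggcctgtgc
BOK: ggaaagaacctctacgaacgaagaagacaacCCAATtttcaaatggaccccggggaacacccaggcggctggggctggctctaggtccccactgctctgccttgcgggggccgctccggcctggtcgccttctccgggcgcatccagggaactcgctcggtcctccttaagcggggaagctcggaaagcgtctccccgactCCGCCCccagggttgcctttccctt
BCL2L11: gagttactccgGTAAACAcgccagggacgg
The full BAX window held 4 E-boxes, whereas those of BAK1 and BOK held 0. An E-box occurred in 7.26% of all 35116 promoter windows, a GC box in 45.0%, a CCAAT box in 34.6% and the FOXO motif in 3.42%. The windows of BAX and BAK1 each held 2 GC boxes and 2 CCAAT boxes, and that of BOK held 1 of each. Among the windows of the 8 genes, the FOXO motif was found in that of BCL2L11. These matches are letters in a window and say nothing about whether a factor was bound.

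The libraries held 50470195 to 58148664 counts in genes with LINC01638 siRNA and 45617234 to 55031286 with control siRNA. LINC01638 itself had 125, 103 and 123 counts with its siRNA and 407, 334 and 414 with control siRNA, a loss of 72.6% in mean level. Some reads lay outside annotated exons of the counted strand, among them reads opposite an exon. These took 13.2% ± 1.67 of mapped reads with LINC01638 siRNA and 9.18% ± 0.864 with control siRNA (SD, n = 3 each). Their part in the results was not tested. Among epithelial markers, keratin genes were abundant in both groups, whereas EPCAM had 1.283, 1.251 and 1.61 CPM (counts scaled to library size) with LINC01638 siRNA and 0.357, 0.321 and 0.452 with control siRNA. Of 8 epithelial markers 1 rose and 6 fell, and their summed level was 3195 to 3726 CPM with LINC01638 siRNA against 5191 to 5635 with control siRNA. Of 7 stromal markers 1 rose and 6 fell, with sums of 4459 to 4658 CPM with LINC01638 siRNA and 6943 to 7814 with control siRNA. Immune markers summed to 34.5 to 35.8 CPM with LINC01638 siRNA and 46.5 to 53.6 with control siRNA, almost all of it CD14, and CD3E was at 0 counts in all 6 libraries. Endothelial markers summed to 10.48 to 12.5 CPM and 12.7 to 15.4 CPM in the same order of groups, most of it KDR, which fell, while CDH5 and VWF rose, so that 2 of the 3 tested went against the sum. What these shifts contribute to the values of the BCL2 family was not tested.

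Of the 10 genes, 5 rose and 4 fell with LINC01638 siRNA, and BAX did not pass the test (edgeR quasi-likelihood test with Benjamini-Hochberg adjustment over all genes, threshold 0.05). Over all 18569 genes 56.0% passed, 26.3% higher and 29.6% lower, so a call by itself sets none of these genes apart. The median log2 fold change of the 10 was 0.05, and that of all genes tested −0.00. The sizes fell into 2 kinds: BCL2, BCL2L2, BAK1 and BOK changed by between 1.69-fold and 2.16-fold, whereas BCL2L1, MCL1, BCL2L11, BID and BAD changed by 1.25-fold or less. When the test asked instead for a change beyond 1.2-fold, BCL2, BCL2L2, BAK1 and BOK passed, as did 31.8% of all genes. For 9 of the 10 genes the CPM ranges of the groups did not overlap, as was the case for 61.5% of all genes. In libraries of pooled cells, less RNA in every cell and fewer cells with the RNA cannot be told apart.

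**Figure D1:**
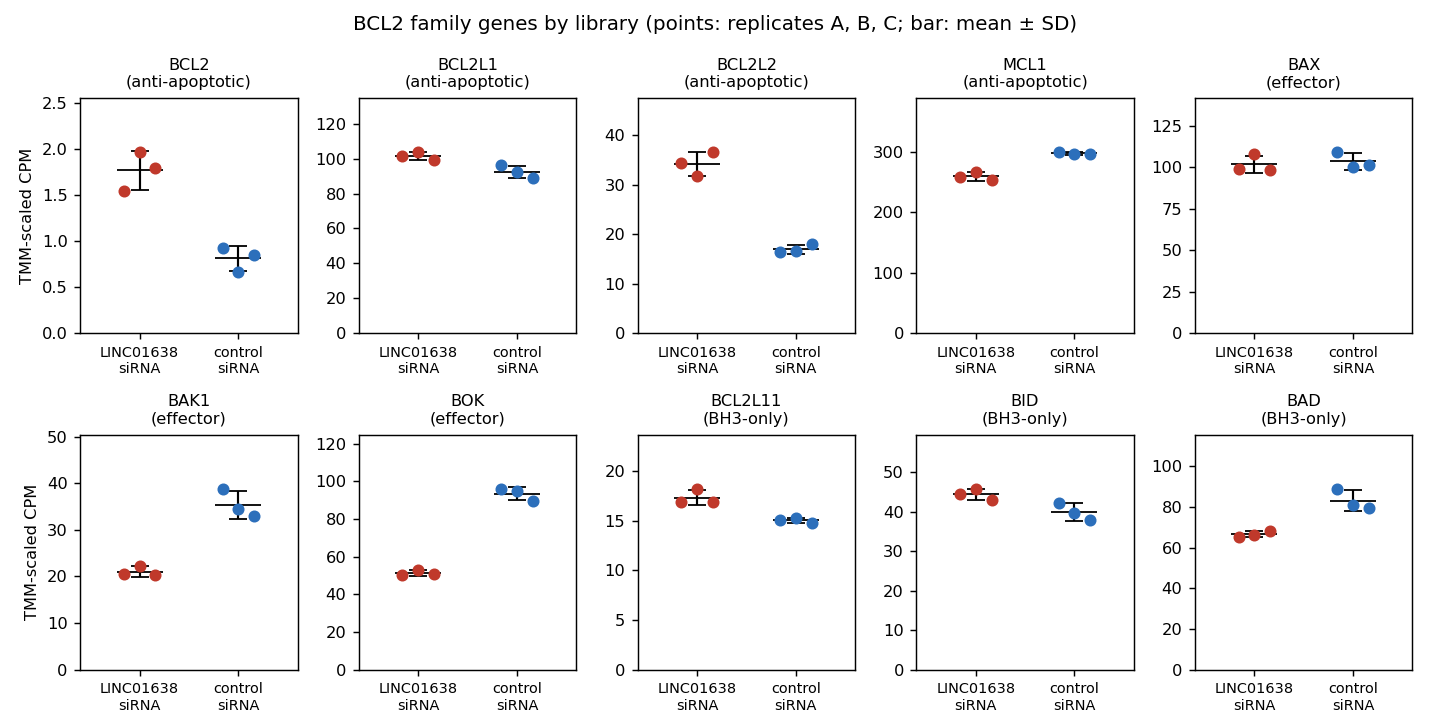
TMM-scaled CPM (vertical axes, each from 0) of the 10 genes in each library, LINC01638 siRNA in red and control siRNA in blue, with group means ± SD (n = 3 each). BCL2 and BCL2L2 stand about 2.16-fold and 2.02-fold higher with LINC01638 siRNA, BAK1 and BOK lie well below their control libraries, and BAX overlaps.

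Among the anti-apoptotic genes, BCL2L2 and BCL2 rose most. BCL2L2 (ENSG00000129473.11, GRCh38 chromosome 14, 23298790 to 23311759, plus strand), which encodes BCL-W, had 34.4, 31.8 and 36.6 CPM in the LINC01638 siRNA libraries and 16.3, 16.5 and 18.04 CPM in the control libraries. Every LINC01638 siRNA library thus lay well above every control library, with a log2 fold change of 1.01 (edgeR adjusted p = 2.39e-10, SE 0.0688). Of its 4189 annotated exon bases, 813 are shared on the same strand with the read-through gene BCL2L2-PABPN1, and reads over them count for neither gene. That read-through gene had 11, 9 and 6 counts with LINC01638 siRNA and 7, 10 and 10 with control siRNA, too few to test, so the count of BCL2L2 rests on the rest of its exons.

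BCL2 (ENSG00000171791.14, chromosome 18, 63123346 to 63320128, minus strand), the founding member of the family, was scarce in this line. It had 84, 102 and 108 counts (1.54, 1.96 and 1.80 CPM) with LINC01638 siRNA and 49, 29 and 45 counts (0.920, 0.664 and 0.848 CPM) with control siRNA. The groups did not overlap, and the log2 fold change was 1.11 (SE 0.201, edgeR adjusted p = 9.05e-05). At such counts its replicates spread more than those of the other 9 genes, with coefficients of variation of 12.1% with LINC01638 siRNA and 16.3% with control siRNA, against 0.612% to 8.51% for the others.

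MCL1 and BCL2L1, the most abundant anti-apoptotic genes, moved little and in opposite directions. MCL1 (ENSG00000143384.14, chromosome 1, 150574551 to 150579738, minus strand), whose protein is short-lived and so follows synthesis closely, had 259, 267 and 253 CPM in LINC01638 siRNA libraries and 299.7, 296 and 297 CPM in control libraries. All values with LINC01638 siRNA were lower, by a log2 fold change of −0.20 (edgeR adjusted p = 0.00152, SE 0.0475). The call was lost when libraries were scaled by their totals alone (log2 fold change −0.09, edgeR adjusted p = 0.0922), a scaling that moved the median of all genes by 0.10 and the share of higher genes among the calls to 59.7%, against 47.0%. BCL2L1 (ENSG00000171552.14, chromosome 20, 31664452 to 31723989, minus strand), which encodes BCL-XL and by another splice form the pro-apoptotic BCL-XS, had 101, 104 and 99.4 CPM with LINC01638 siRNA and 96.2, 92.5 and 89.3 CPM with control siRNA. The nearest values of the groups lay close together, and the log2 fold change was 0.13 (SE 0.0479, edgeR adjusted p = 0.0242). This call did not hold without LINC01638 siRNA replicate A (edgeR adjusted p = 0.0658) or B (0.0863), or without control replicate B (0.0610) or C (0.120). Counts per gene do not separate the splice forms of BCL2L1, MCL1 or BCL2L11.

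Among the effector genes, BAK1 and BOK fell while BAX did not pass the test. BOK (ENSG00000176720.6, chromosome 2, 241551424 to 241574138, plus strand), whose protein is kept low by the proteasome in many cells, had 50.3, 53.0 and 50.9 CPM in LINC01638 siRNA libraries against 96.1, 95.02 and 89.7 CPM in control libraries. The coefficient of variation was 2.78% with LINC01638 siRNA and 3.62% with control siRNA, and BOK fell by a log2 fold change of −0.86 (edgeR adjusted p = 2.68e-11, SE 0.0499). BAK1 (ENSG00000030110.14, chromosome 6, 33572547 to 33580293, minus strand), which encodes the BAK protein resident in the mitochondrial membrane, had 20.5, 22.3 and 20.3 CPM with LINC01638 siRNA and 38.8, 34.5 and 33.0 CPM with control siRNA. The highest LINC01638 siRNA value was below the lowest control value, with a log2 fold change of −0.75 (edgeR adjusted p = 1.52e-08, SE 0.0690). BAX (ENSG00000087088.21, chromosome 19, 48954815 to 48961798, plus strand), which moves from the cytosol to mitochondria on activation, had 99.2, 108 and 98.5 CPM with LINC01638 siRNA and 109, 100.3 and 101 CPM with control siRNA. The groups overlapped, and the log2 fold change was −0.02 with a 95% interval from −0.13 to 0.08 (edgeR adjusted p = 0.711), so a change of BAX as large as that of BAK1 or BOK lies outside its interval. The sign of this value for BAX turned with library totals (0.08), with the stricter filter on low counts (0.01) and without control replicate A (0.02).

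The BH3-only genes among the 10 changed by 1.25-fold at most. BAD (ENSG00000002330.14, chromosome 11, 64269830 to 64284704, minus strand), whose protein is held by 14-3-3 proteins when survival kinases phosphorylate it, had 65.4, 66.4 and 68.2 CPM with LINC01638 siRNA and 89.0, 80.9 and 79.8 CPM with control siRNA. It fell, with a log2 fold change of −0.32 (edgeR adjusted p = 2.73e-05, SE 0.0521), and the call held in all 6 fits that left out a library. BCL2L11 (ENSG00000153094.24, chromosome 2, 111119378 to 111168447, plus strand), which encodes BIM, a potent activator that binds all anti-apoptotic members, had 16.9, 18.2 and 16.9 CPM in LINC01638 siRNA libraries and 15.03, 15.3 and 14.8 CPM in control libraries. The gap between the groups was small, and the log2 fold change was 0.20 (SE 0.0695, edgeR adjusted p = 0.0173). Without LINC01638 siRNA replicate B the adjusted p for BCL2L11 was 0.0674, and without control replicate C it was 0.0571 (edgeR). BID (ENSG00000015475.19, chromosome 22, 17734138 to 17774770, minus strand), which links death receptors to mitochondria once caspase-8 has cleaved it, had 44.5, 45.8 and 43.05 CPM with LINC01638 siRNA and 42.3, 39.7 and 37.9 CPM with control siRNA. The groups nearly touched, with a log2 fold change of 0.15 (edgeR adjusted p = 0.0271, SE 0.0567). The call for BID did not hold without LINC01638 siRNA replicate A (edgeR adjusted p = 0.0691) or B (0.0936), or without control replicate B (0.0652) or C (0.145).

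**Figure D2:**
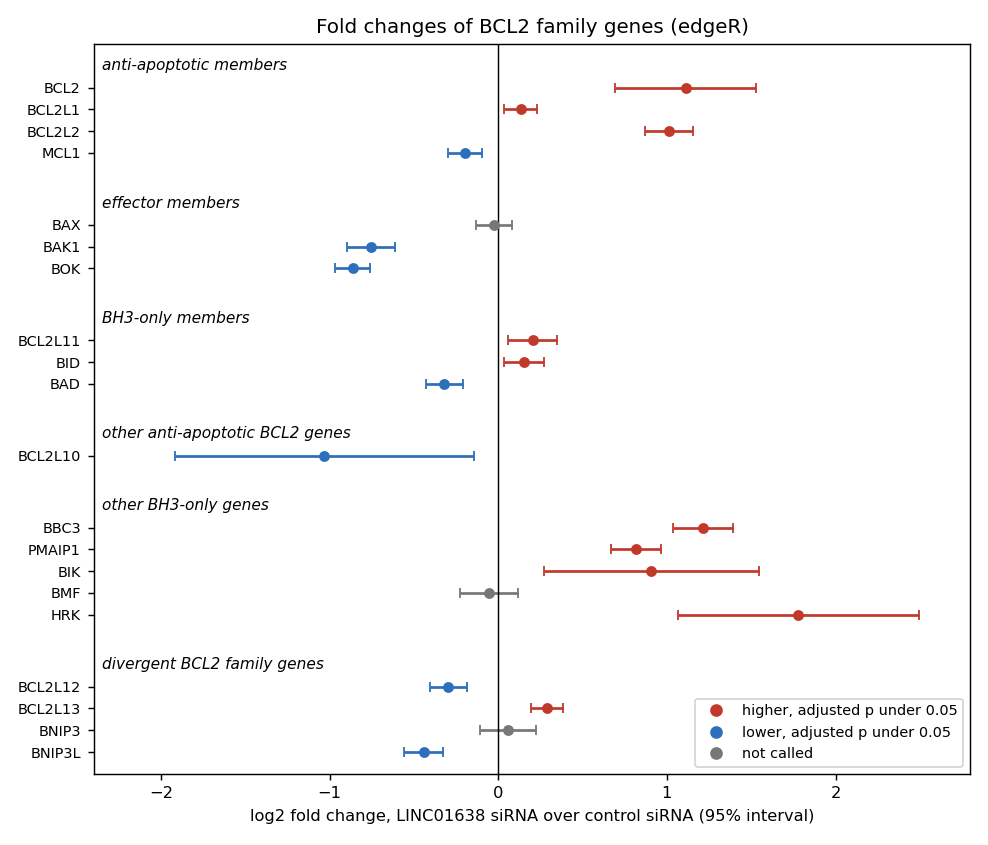
Log2 fold changes (horizontal axis, LINC01638 siRNA over control siRNA) with 95% intervals from the edgeR fit for the 10 genes and for the other BCL2 family genes tested, grouped by role. BCL2 (1.11), BCL2L2 (1.01), BAK1 (−0.75) and BOK (−0.86) stand far from 0 with intervals narrower than their distance from it, whereas BCL2L1, BCL2L11 and BID have intervals that begin close to 0.

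To compare the genes with one another, CPM were divided by the length of each gene's merged annotated exons, giving CPM per kb. With LINC01638 siRNA the order from high to low was MCL1 (59.4 ± 1.61 CPM per kb), BAX (39.4 ± 2.02), BAD (39.0 ± 0.830), BCL2L1 (30.6 ± 0.671), BOK (19.0 ± 0.528), BID (9.996 ± 0.310), BAK1 (9.50 ± 0.510), BCL2L2 (8.18 ± 0.574), BCL2L11 (2.60 ± 0.114) and BCL2 (0.150 ± 0.0182; mean ± SD, n = 3). With control siRNA it was MCL1 (68.1 ± 0.416 CPM per kb), BAD (48.7 ± 2.93), BAX (40.04 ± 1.89), BOK (34.5 ± 1.25), BCL2L1 (27.96 ± 1.05), BAK1 (16.005 ± 1.36), BID (8.99 ± 0.497), BCL2L2 (4.05 ± 0.222), BCL2L11 (2.26 ± 0.0372) and BCL2 (0.0689 ± 0.0112; mean ± SD, n = 3). With LINC01638 siRNA the neighbours BAX and BAD, and BID and BAK1, overlapped in range, and with control siRNA no neighbours did. MCL1 was thus the highest and BCL2 the lowest of the 10 in both groups. BCL2L1 stood above BOK with LINC01638 siRNA and below it with control siRNA. The rank of a gene depends on the exons used for its length, which may not be the ones used in these cells.

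The balance between the sides was taken as the summed level of the 4 anti-apoptotic genes over that of the 6 effector and BH3-only genes, a ratio within each library that does not depend on how libraries are scaled. Each sum, unlike the ratio, does depend on the scaling (TMM here), and sums with library totals alone were not computed. The anti-apoptotic sum was 98.2, 100.2 and 96.8 CPM per kb in LINC01638 siRNA libraries and 102, 99.7 and 99.2 CPM per kb in control libraries, and the groups overlapped. The pro-apoptotic sum was 117, 123 and 118 CPM per kb with LINC01638 siRNA and 159, 148 and 145 CPM per kb with control siRNA, without overlap. The ratio of anti-apoptotic to pro-apoptotic RNA was therefore 0.824 ± 0.0141 with LINC01638 siRNA and 0.666 ± 0.0245 with control siRNA (SD, n = 3 each), a difference of 0.31 on the log2 scale. No test was made of this score, since it is built from genes chosen with their values known. Against the effectors alone the log2 ratio was 0.54 ± 0.0421 with LINC01638 siRNA and 0.15 ± 0.0476 with control siRNA, and against the BH3-only genes among the 10 it was 0.93 ± 0.0328 and 0.74 ± 0.0630 in the same order of groups. The sum is dominated by MCL1, and without it the difference in the log2 ratio was 0.61. A mean of log2 levels put the difference at 0.79, but it gives the scarce BCL2 as much weight as MCL1. Without BCL2L2 it was 0.24. Genes of the family outside the 10 entered neither sum. Of 5 further BH3-only genes tested, 4 rose and 0 fell, among them BBC3 and PMAIP1 (log2 fold changes 1.21 and 0.82). BCL2L10, an anti-apoptotic gene with few counts, fell. No balance was computed with these genes, or without BOK.

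**Figure D3:**
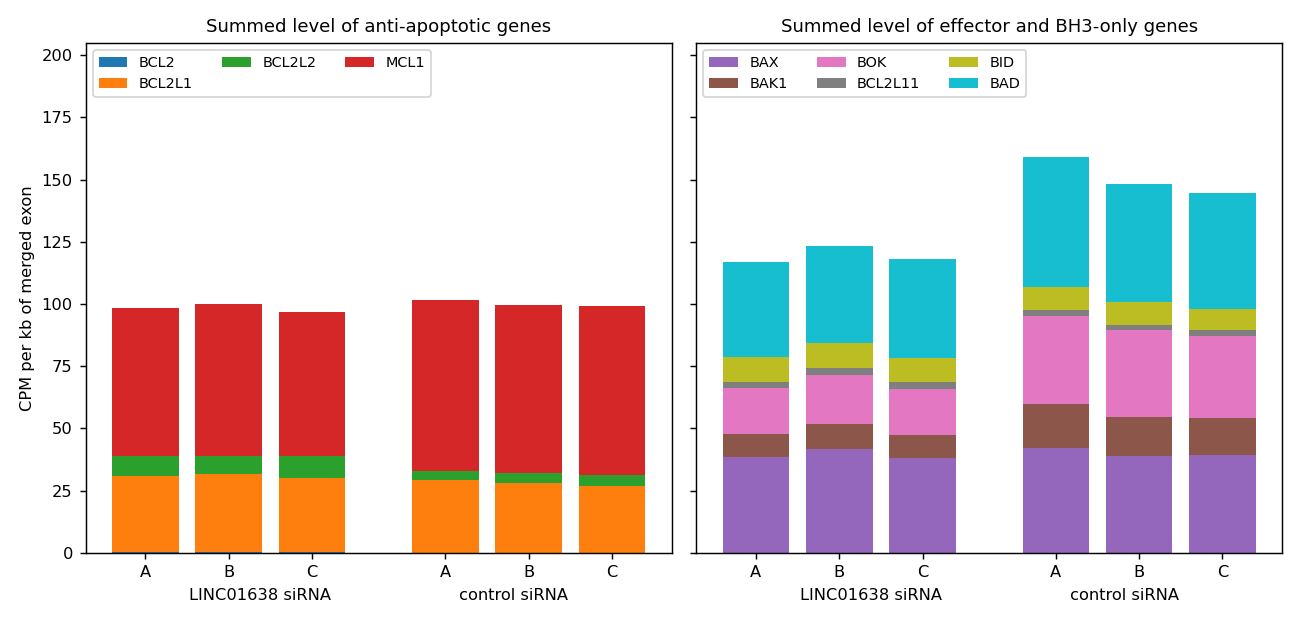
Summed CPM per kb (vertical axis from 0) of the anti-apoptotic genes (left panel) and of the effector and BH3-only genes (right panel) in each library, stacked by gene, LINC01638 siRNA replicates A to C left of control replicates A to C. With TMM scaling the anti-apoptotic stacks are of like height (96.8 to 102 CPM per kb over all 6 libraries). The pro-apoptotic stacks reach 117 to 123 with LINC01638 siRNA and 145 to 159 with control siRNA.

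Within each side the make-up differed more than the anti-apoptotic sum did. MCL1 made up 60.4% ± 0.582 of the anti-apoptotic sum with LINC01638 siRNA and 68.0% ± 0.472 with control siRNA, BCL2L1 31.1% ± 0.146 and 27.9% ± 0.722, and BCL2L2 8.32% ± 0.726 and 4.05% ± 0.262 (SD, n = 3 each, LINC01638 siRNA first each time). BCL2 stayed a trace, at 0.153% ± 0.0173 with LINC01638 siRNA and 0.0688% ± 0.0107 with control siRNA. Among the effectors BAX made up 58.0% ± 0.384 with LINC01638 siRNA and 44.2% ± 0.776 with control siRNA, while BOK made up 27.98% ± 0.514 and 38.1% ± 0.990. BAD made up 75.6% ± 0.868 of the level of the 3 BH3-only genes with LINC01638 siRNA and 81.2% ± 0.385 with control siRNA. None of these shares overlapped between the groups, as was the case for the CPM of 61.5% of all genes. The shares of a side add up to the whole, so a change in any gene moves the shares of the others. The share of BAX thus differed although BAX itself did not pass the test.

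Each ratio of an anti-apoptotic gene to an effector taken here was higher with LINC01638 siRNA, but not every pair was taken. MCL1 to BAX was left out. It would be lower with LINC01638 siRNA, since MCL1 fell (log2 fold change −0.20) while BAX did not pass (−0.02). The BCL2L1 to BAX ratio, between BCL-XL and an effector it restrains, was 0.799, 0.751 and 0.787 with LINC01638 siRNA and 0.688, 0.719 and 0.688 with control siRNA. It was higher in each LINC01638 siRNA library by a small margin, with a mean difference of 0.16 on the log2 scale. The MCL1 to BAK1 ratio, between BAK and a main keeper of it, was 6.402, 6.06 and 6.32 with LINC01638 siRNA and 3.91, 4.35 and 4.56 with control siRNA. That was a difference of 0.55 on the log2 scale although MCL1 itself fell. The BCL2L1 to BAK1 ratio was 3.31, 3.11 and 3.27 with LINC01638 siRNA and 1.66, 1.79 and 1.81 with control siRNA. The effectors also changed relative to each other, with a BAX to BAK1 ratio of 4.15 ± 0.0116 with LINC01638 siRNA and 2.51 ± 0.110 with control siRNA (SD, n = 3 each). The MCL1 to BCL2L1 ratio, between anti-apoptotic genes, was lower, at 1.94 ± 0.0105 with LINC01638 siRNA and 2.44 ± 0.0802 with control siRNA. The difference was −0.33 on the log2 scale. Wider gaps were those of BCL2L2 to BAX (1.04 on the log2 scale) and BCL2 to BAX (1.15), which are not drawn.

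**Figure D4:**
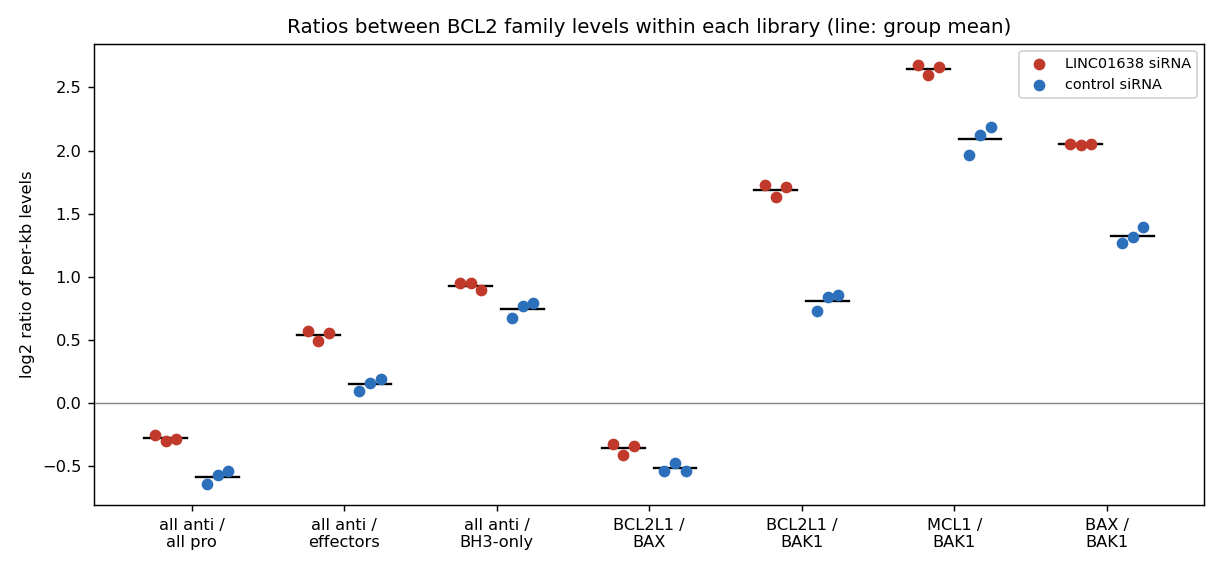
Log2 ratios of CPM per kb (vertical axis) within each library for the summed sides and for single pairs, LINC01638 siRNA in red left of control siRNA in blue, with lines at group means. In the 7 ratios drawn the LINC01638 siRNA libraries lie above the control libraries, by 0.88 for BCL2L1 to BAK1 and 0.73 for BAX to BAK1. MCL1 to BAX, which would lie lower with LINC01638 siRNA, is not drawn.

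The rest of the family was described from a list of 13 further genes, of which 10 could be tested, 5 rose, 3 fell and 2 did not pass (median log2 fold change 0.17). Of all genes tested, 56.0% passed and 26.3% were higher. Of the 5 BH3-only genes outside the 10, 4 rose, and whether they stand apart from other genes was not tested. BBC3, which encodes PUMA and is a p53 target, had 17.15, 19.0 and 17.998 CPM with LINC01638 siRNA and 8.58, 6.94 and 7.75 CPM with control siRNA (log2 fold change 1.21, SE 0.0852, edgeR adjusted p = 3.86e-10). PMAIP1, which encodes NOXA, a partner chiefly of MCL1, had 22.3, 24.5 and 24.6 CPM with LINC01638 siRNA and 14.4, 12.98 and 13.2 CPM with control siRNA (log2 fold change 0.82, SE 0.0713, edgeR adjusted p = 8.03e-09). Both genes thus lay well above control in every library, and both changed more than any BH3-only gene among the 10. HRK (log2 fold change 1.78) and BIK (0.91), further BH3-only genes, rose at low levels, with 0.886 ± 0.121 and 1.11 ± 0.150 CPM with LINC01638 siRNA and 0.263 ± 0.141 and 0.585 ± 0.309 CPM with control siRNA (SD, n = 3 each). The value for BIK rested on single control libraries: its log2 fold change was 0.56 without control replicate C, where the call was lost (edgeR adjusted p = 0.0978), and 1.40 without control replicate A. BMF, a BH3-only gene whose protein is tethered to the cytoskeleton, stood at 12.7 ± 0.418 CPM with LINC01638 siRNA and 13.2 ± 1.25 CPM with control siRNA and did not pass (edgeR adjusted p = 0.590).

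Other anti-apoptotic genes were close to absent. BCL2A1 had at most 1 count in any library, and BCL2L10, with 6, 7 and 14 counts with LINC01638 siRNA and 22, 12 and 16 with control siRNA, passed narrowly (log2 fold change −1.03, SE 0.424, edgeR adjusted p = 0.0452). That call did not hold with DESeq2 (adjusted p = 0.105) nor in any fit that left out a library other than LINC01638 siRNA replicate C, where the edgeR adjusted p was 0.0561 to 0.194. Among divergent members BCL2L13, a mitophagy receptor, rose (log2 fold change 0.29), while BNIP3L, the mitophagy receptor NIX (−0.44), and BCL2L12 (−0.30) fell. BNIP3 had 122, 102 and 131 CPM with LINC01638 siRNA and 118, 107 and 117 CPM with control siRNA and did not pass (edgeR adjusted p = 0.551), but without LINC01638 siRNA replicate B its adjusted p was 0.0366. BCL2L14 and BCL2L15 had too few counts to test.

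Genes whose products act on the BCL2 family directly went both ways, with 10 higher and 8 lower of 24 (median log2 fold change 0.01), where 26.3% of all genes tested were higher and 29.6% lower. FBXW7, a ubiquitin ligase subunit that marks MCL1 for degradation, stood at 53.05 ± 0.643 CPM with LINC01638 siRNA and 37.1 ± 1.59 CPM with control siRNA, a log2 fold change of 0.52. DYNLL2, the dynein light chain that binds BMF, rose by 0.48 on the same scale, whereas the related DYNLL1 fell (−0.33). FOXO3, the transcription factor named above for BCL2L11, fell, with 48.0 ± 2.01 CPM with LINC01638 siRNA and 69.5 ± 1.31 CPM with control siRNA (log2 fold change −0.54). YWHAH, a 14-3-3 gene, also fell (−0.64). The other 14-3-3 genes listed went both ways. YWHAQ (−0.45) and YWHAG (−0.20) fell, YWHAE (0.22) and YWHAZ (0.17) rose, and YWHAB did not pass. For FBXW7, DYNLL2, FOXO3 and YWHAH, edgeR adjusted p-values were between 2.37e-09 and 8.21e-08.

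Downstream of the pore, genes of proteins released from mitochondria or shaping them comprised 3 higher and 7 lower of 14 (median log2 fold change −0.11), beside the same 26.3% higher and 29.6% lower of all genes. Whether either list stands apart from other genes was not tested. CYCS, which encodes cytochrome c, stood at 159 ± 6.90 CPM with LINC01638 siRNA and 106 ± 7.68 CPM with control siRNA (log2 fold change 0.58). DIABLO, whose protein relieves the block on caspases, rose by 0.92 on the log2 scale at a low level, with 5.40 ± 0.688 CPM with LINC01638 siRNA and 2.84 ± 0.252 CPM with control siRNA. HTRA2, a protease of the intermembrane space, and FIS1, of mitochondrial fission, fell (−0.72 and −0.66). The edgeR adjusted p-values of these 4 genes were between 2.69e-09 and 3.01e-06.

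Across 15 alternative analyses BCL2, BCL2L2, BAK1 and BOK kept their direction and passed the threshold in each. Their log2 fold changes ranged from 0.99 to 1.22 for BCL2, from 0.96 to 1.11 for BCL2L2, from −0.83 to −0.65 for BAK1 and from −0.91 to −0.76 for BOK. BCL2L1 passed in 7 of the 15, BID in 8 and BCL2L11 in 11, while MCL1 passed in 13 and BAD in 14.

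**Figure D5:**
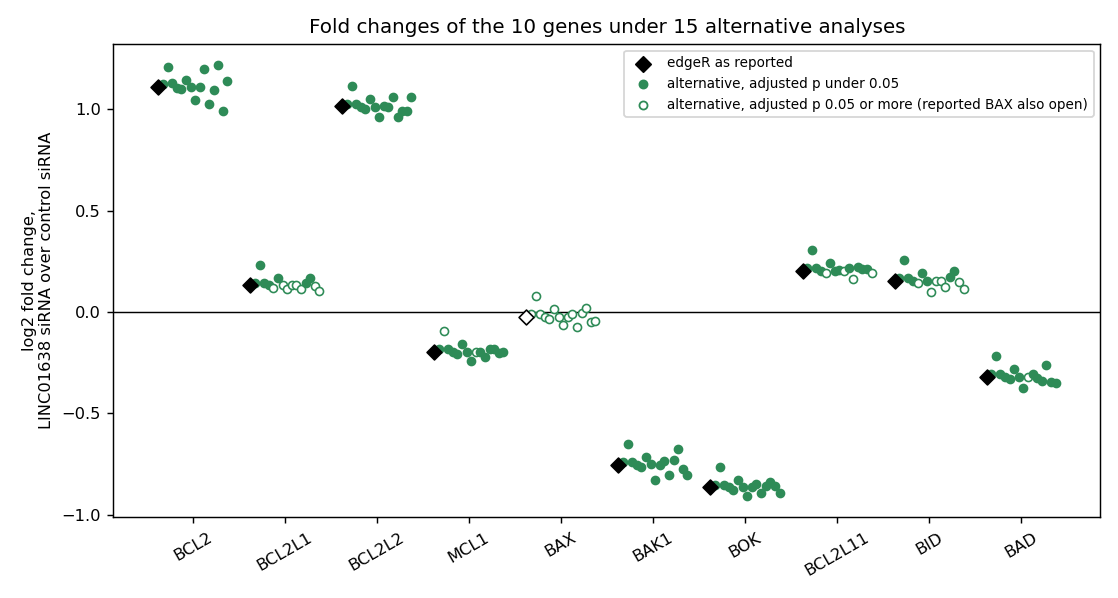
Log2 fold changes (vertical axis, LINC01638 siRNA over control siRNA) of the 10 genes as reported (diamonds) and under 15 alternative analyses (circles), filled where the adjusted p was under 0.05. All circles are filled for BCL2, BCL2L2, BAK1 and BOK, and 8 of 15 are open for BCL2L1.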

How the data were processed

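RNA of 6 libraries was depleted of ribosomal RNA and sequenced in 50 bp reads with a directional kit, per the labels' protocols. The counts, as deposited by the authors, are whole numbers per gene in 1 table per library, in the layout of STAR. Per the submitters' processing notes, STAR 2.7.10b, R 4.2.1 and GRCh38 were used, and the sources used here do not give the annotation release or how reads were mapped. The reverse-strand column was used, since it held most counts. The 4 rows that name no gene were left out. Unmapped reads were 11.9% to 13.1% of fragments. Of mapped reads, those outside exons of the counted strand were 8.32% to 15.1%. Those over several genes were 7.02% to 7.76%, and those mapping to several places 0.

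Symbols matched 61918 identifiers exactly and 754 without the version. Genes were filtered with filterByExpr (minimum count 10, minimum total 15), scaled by TMM and tested in edgeR by its quasi-likelihood F test (robust, with no term but group). SE is the absolute log2 fold change over the square root of F, fold changes are LINC01638 siRNA over control siRNA, and the biological coefficient of variation was 5.62%. Replicates differed by more than counting noise (chi-square per degree of freedom 5.90 to 16.4), so none was a repeat deposit. Positions, exon lengths and overlaps came from GENCODE 29, a release that the counting may not have used. Only the edgeR fit was tested on simulated counts, in which far fewer genes changed than were called here. The scripts for levels, ratios and promoters had no such test.

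The members and the gene lists were chosen with earlier results of these data known. The rule for named genes took the 10 members, all other BCL2 family genes that could be tested, up to 4 called genes with the lowest p of the lists of regulators and of mitochondrial genes, LINC01638, and genes that overlap a member. Alternatives were library totals, DESeq2's size factors, limma-voom, DESeq2's Wald test, a filter of 1 CPM in 3 libraries with a mean of 10 counts, no filter, a block for the replicate letter, counts without strand, edgeR's glmTreat against 1.2-fold, and each library left out. Tools were edgeR 4.0.16, DESeq2 1.42.0 and limma 3.58.1 in R 4.3.3, and pandas 2.3.3, numpy 2.4.6 and matplotlib 3.10.9 in Python 3.11.15.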

Additional observations from a re-analysis of the deposited data

Results flagged for a closer look

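Counts on the strand opposite to BCL2L11, which were not tested on their own, were higher with LINC01638 siRNA than in any control library. By replicate letter, A to C, LINC01638 siRNA gave 51, 36 and 22 counts and control siRNA 9, 7 and 10, or 0.664 ± 0.285 CPM against 0.173 ± 0.0145 CPM (SD, n = 3 each). The difference was not tested. Opposite-strand counts also did not overlap for BAX (0.581 ± 0.124 CPM with LINC01638 siRNA, 0.342 ± 0.0700 with control siRNA). Nor did they for BAK1, with very few counts (0.0664 ± 0.0222 and 0.0202 ± 0.00236 CPM). Those of BOK were lower without overlap (0.291 ± 0.0592 and 0.681 ± 0.173 CPM). The share of all genes without such overlap was not computed. BCL2L11 shares 727 exon bases with MIR4435-2HG, a long non-coding RNA gene on the opposite strand, which rose by 0.21 on the log2 scale (edgeR adjusted p = 0.00607, SE 0.0613). Reads outside exons of the counted strand include reads opposite an exon. By replicate letter, A to C, they took 15.1%, 12.3% and 12.1% of mapped reads with LINC01638 siRNA and 8.32%, 9.18% and 10.1% with control siRNA. Their part in the opposite-strand counts was not tested.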

How the results depend on the processing

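Of 150 values from 15 alternatives for the 10 genes, 125 kept direction and side of the threshold. With library totals MCL1 lost its call (−0.0947), and BAX (0.0769) and BMF (0.0472) turned sign without passing. Without a filter BCL2L1 (0.12, edgeR adjusted p = 0.1005), BCL2L11 (0.19, 0.0528) and BID (0.14, 0.0812) lost theirs, and with counts without strand BCL2L1 (0.11) and BID (0.10) did. Without strand some genes kept far fewer counts and others did not. In LINC01638 siRNA replicate A, BAD had 817 against 3567, BCL2L1 2895 against 5539 and MCL1 14160 against 14131. The lengths used for the balance stayed the same. With the stricter filter BAX was at 0.0125. Against 1.2-fold, BCL2L1 (0.13), MCL1 (−0.20), BCL2L11 (0.20), BID (0.15) and BAD (−0.32) did not pass, and calls numbered 4 among the 10 genes, 5 among other BCL2 family genes, 8 among regulators, 6 among mitochondrial genes and 5907 of all genes, against 9, 8, 18, 10 and 10390. With the stricter filter 5 other family genes were called among 7 tested. The causes were not tested.

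Same-letter replicates did not deviate together (correlations −0.08 to −0.02, against −0.03 to 0.05 for different letters). No shared deviation by letter was thus seen, but the labels do not say whether the letters mark pairs, and these correlations cannot settle it. With the replicate block 8 of the 10 genes and 9962 of all genes were called, and BCL2L1 (0.13, edgeR adjusted p = 0.0541) was not.

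With each library left out in turn, log2 fold changes ranged over 0.99 to 1.22 for BCL2, 0.11 to 0.17 for BCL2L1, 0.96 to 1.06 for BCL2L2, −0.22 to −0.18 for MCL1, −0.0728 to 0.0217 for BAX, −0.80 to −0.68 for BAK1, −0.89 to −0.84 for BOK, 0.16 to 0.22 for BCL2L11, 0.11 to 0.20 for BID and −0.35 to −0.26 for BAD. Calls among the 10 genes ranged over 6 to 9, and the balance over 0.28 to 0.33. BMF (−0.120 to 0.0123, above 0 without control replicate B) and BNIP3 (−0.0245 to 0.149, below 0 without LINC01638 siRNA replicate C) turned sign there without passing. The balance, 0.31 as reported, was 0.79 as a mean of log2 levels, 0.61 without MCL1, 0.24 without BCL2L2, 0.24 with the longest transcript, 0.27 without strand and, chosen after seeing the data, 0.32 with bases shared with another gene left out of the length. Among the genes tested here, counts a library were low for BCL2L10 (6 to 22), HRK (7 to 55), BIK (15 to 65) and BCL2 (29 to 108), and BCL2A1, BCL2L14 and BCL2L15 had too few to test.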

Other observations

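Genes that overlap members of the family, picked from the annotation, were counted separately by strand. BOK-AS1, which shares 201 exon bases with BOK on the opposite strand, had 9, 4 and 15 counts with LINC01638 siRNA and 33, 16 and 33 with control siRNA (log2 fold change −1.68, SE 0.408, edgeR adjusted p = 0.00156). On the opposite strand, that of BOK, lay 96.9% of the stranded counts at BOK-AS1 with LINC01638 siRNA and 94.6% with control siRNA. Whether the few counts of BOK-AS1 are reads of BOK given the wrong strand was not tested. ABALON, which shares 1424 exon bases with BCL2L1 on the opposite strand, had 16, 24 and 21 counts with LINC01638 siRNA and 17, 13 and 20 with control siRNA and did not pass (edgeR adjusted p = 0.753), and 99.3% of the stranded counts there lay on the strand of BCL2L1 in both groups. GPR137, opposite BAD, stood at 33.4, 30.1 and 35.6 CPM with LINC01638 siRNA and 32.2, 31.3 and 31.4 CPM with control siRNA and did not pass (edgeR adjusted p = 0.417). PABPN1, the gene next to BCL2L2 that takes part in its read-through transcript, was lower with LINC01638 siRNA (log2 fold change −0.17, SE 0.0686, edgeR adjusted p = 0.0424), whereas BCL2L2 was higher.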
